A study of Mus musculus with 30 samples.

Results

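The CD28 family is a small group of receptors of the immunoglobulin superfamily on T cells, and 4 of its genes were followed here: Ctla4, Icos, Cd28 and Pdcd1. Every probe set annotated with exactly 1 of these symbols was taken, which gave 1 probe set per gene and 4 of the 12422 probe sets tested. They stand for 4 of the 8251 genes that a probe set names alone on the array, a one-colour Affymetrix MG-U74Av2. All 30 array records are of RNA from CD4+ T cells sorted from NOD mice, a strain prone to autoimmune diabetes. All mice had the BDC2.5 T cell receptor transgene, which recognizes an antigen of the pancreatic islets.

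The arrays fall into 3 sets of records. In pancreas set 2, sorted cells came from the infiltrated pancreas of mice given anti-ICOS antibodies (3 arrays of CD4+CD25+ regulatory or Treg cells and 3 of CD4+CD25- effector or Teff cells) or control IgG (2 arrays of Treg cells). The labels of this set give an age of 26 days, except for IgG replicate 1, labelled 4 weeks and sorted as CD4+CD25+CD69-. Pancreas set 1 came from mice given rat IgG and held 3 arrays of CD4+CD25+CD69- Treg cells and 5 of CD4+CD25lo/-CD69+/- Teff cells, with no age in the labels. Treg replicate 3 of set 1 was also deposited in set 2, as IgG replicate 2, with an age of 26 days. The lymph node set came from mice of 4 weeks for which the labels name no treatment. It held 5 mesenteric CD25+, 3 mesenteric CD25-, 3 peripheral CD25+ and 3 peripheral CD25- arrays. Because one transgenic receptor dominates these T cells, and because the CD25+ gate also takes activated cells, the groups are a model of 1 antigen specificity and of gated populations. The labels do not say that replicates came from separate mice, so p-values measure the spread between these arrays, which may be technical.

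CD28 is the main costimulatory receptor of T cells: it binds CD80 and CD86 on antigen-presenting cells and adds a signal, through PI3 kinase and other enzymes, to that of the T cell receptor. CTLA-4 binds the same ligands with higher affinity and restrains the response, and Treg cells keep it at a high level and need it to suppress. ICOS, which binds ICOS ligand, appears after activation and supports cytokine production, and PD-1, the product of Pdcd1, recruits phosphatases and dampens signalling in activated cells. Blocking CTLA-4 or PD-1 is known to accelerate diabetes in NOD mice.

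Cd28, Ctla4 and Icos lie side by side on mouse chromosome 1 in the RefSeq annotation of GRCm38.p6, with 0 protein-coding genes between Cd28 and Ctla4 and 0 between Ctla4 and Icos. Pdcd1 lies farther along the same chromosome, with 278 protein-coding genes between it and Icos. The 250 bases before the annotated start of Ctla4 and Pdcd1 are shown because both genes were called higher in pancreatic Treg cells. The GGAAA core bound by NFAT, a factor that T cell receptor and CD28 signals activate, is in capitals wherever it occurs on either strand.
Ctla4: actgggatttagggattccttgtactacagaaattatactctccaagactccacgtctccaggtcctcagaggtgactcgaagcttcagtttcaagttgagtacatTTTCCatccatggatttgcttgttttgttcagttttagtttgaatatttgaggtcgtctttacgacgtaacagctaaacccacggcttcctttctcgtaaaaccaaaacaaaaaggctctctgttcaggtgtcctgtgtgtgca
Pdcd1: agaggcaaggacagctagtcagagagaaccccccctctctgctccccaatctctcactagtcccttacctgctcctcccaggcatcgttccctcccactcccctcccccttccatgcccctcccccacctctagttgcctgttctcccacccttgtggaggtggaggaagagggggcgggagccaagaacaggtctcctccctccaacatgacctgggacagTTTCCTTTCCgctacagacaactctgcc
The Ctla4 stretch is chr1:60908775-60909024 on the plus strand and held 1 match, and the Pdcd1 stretch is chr1:94052554-94052803 on the minus strand and held 2, which adjoin. The core is common: 55.6% of 32851 promoter windows of that length held it. The Ctla4 window had 42.4% G and C bases and the Pdcd1 window 60.4%. Neither window held TGTTTNC, the letters searched for forkhead factors such as Foxp3, which 17.8% of windows held on one strand or the other. The AP-1 letters TGANTCA, found in 6.75% of windows, were absent from both windows too. The TATA box letters TATAAA, which 12.4% of windows held, were also missing from both.

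The arrays were usable with some marks against single records. Medians differed by no more than 0.085 to 0.097 on the log2 scale within a set. The sorted cells carried T cell markers on every array (Cd3e from 7.86 to 9.05 log2 units), and the summed intensity of 7 measured CD25+ Treg markers was 1043.0 to 2415.4 on the Treg and CD25+ arrays against 306.7 to 620.4 on the Teff and CD25- arrays, with 1 exception. The array labelled anti-ICOS Treg replicate 3 had 432.2, and its Il2ra, which encodes CD25, was 3.88 against 5.0 and 7.03 on the other anti-ICOS Treg arrays. The Treg minus Teff differences under anti-ICOS and the treatment differences in Treg cells are given with and without it. For the change of the Treg minus Teff difference with treatment, this was done for Ctla4 and Cd28 alone. IgG Treg replicate 1 of set 2 had the highest sums of myeloid (922.3) and red cell markers (10163.6). The same array was deposited as both IgG Treg replicate 3 of set 1 and IgG Treg replicate 2 of set 2 (r = 0.997 between its records, at most 0.988 with any other pancreatic array). Mesenteric CD25+ replicate 2 has a source name of CD25-, but its Il2ra of 5.50 lay with the CD25+ arrays of its site (5.34 to 6.23, against 4.08 to 4.11 in CD25- arrays). The peripheral arrays bear a mesenteric tissue entry that goes against their titles and source names, and titles were followed.

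The 4 probe sets had very different signals, which is a property of each probe set as much as of its gene. Cd28 stood between the 71.1 and 97.0 percentile of its array, Ctla4 between 30.8 and 96.8, Pdcd1 between 46.2 and 70.8 and Icos between 18.5 and 57.3. Icos thus read at intensities of only 9.24 to 39.8, and the table used holds no detection calls to say whether that is above background. The tests are limma fits across all probe sets with Benjamini-Hochberg adjustment, and a probe set was called at an adjusted p under 0.05.

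**Figure D1:**
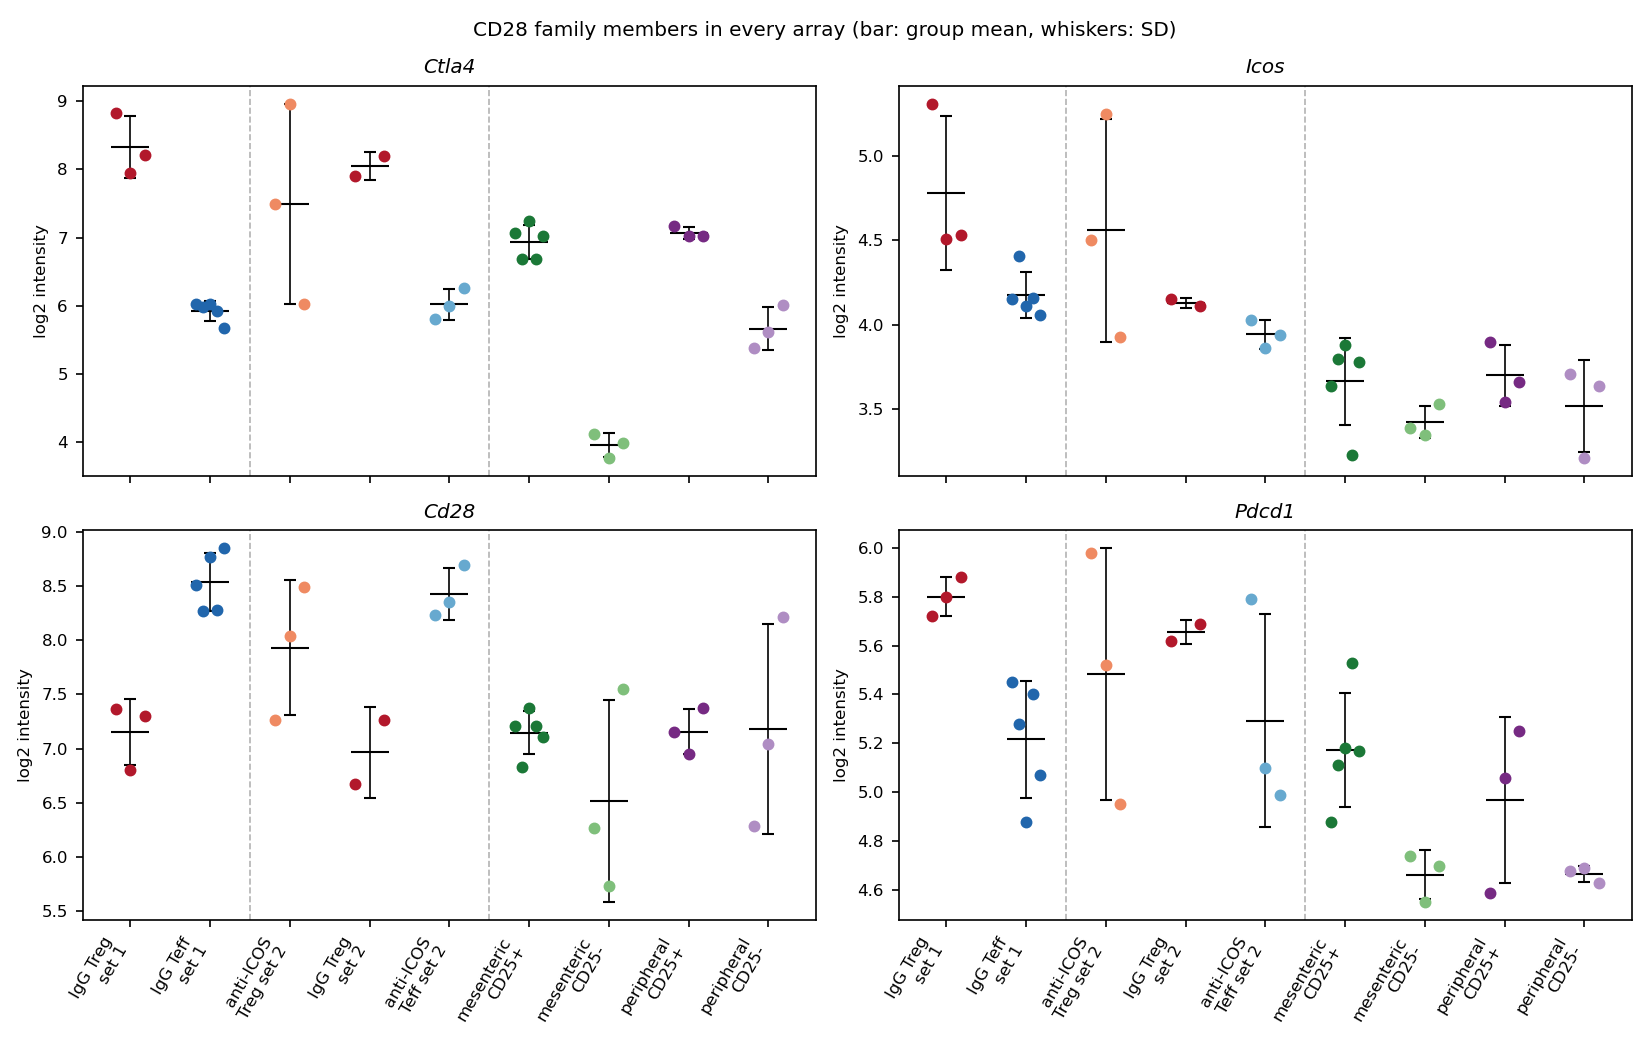
Log2 intensity of Ctla4, Icos, Cd28 and Pdcd1 (vertical axes) in each array (points) of the 9 groups, with the group mean and SD. Dashed lines part pancreas set 1, pancreas set 2 and the lymph node set, whose values are as deposited and differ in scale. Ctla4 is high in Treg and CD25+ groups, apart from the anti-ICOS Treg array at 6.02, while Cd28 is high in the pancreatic Teff groups.

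The first comparison asked how Treg cells of the inflamed pancreas differ from the Teff cells beside them under control IgG. Of the 4 receptors, Ctla4 and Pdcd1 were called higher in Treg cells, Cd28 was called lower, and Icos did not pass. Over all probe sets 6.69% were called in this comparison, 3.93% higher and 2.76% lower. In sorted bulk cells, more expressing cells and more RNA per cell cannot be told apart.

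Ctla4 read 8.83, 7.94 and 8.21 log2 units on the IgG Treg arrays, against 6.02, 5.99, 6.02, 5.92 and 5.68 on the IgG Teff arrays. The lowest Treg value lay almost 2 log2 units above the highest Teff value, and the Teff arrays were tightly grouped. Ctla4 was 5.29-fold higher in Treg cells (log2 difference 2.40, SE 0.18, limma adjusted p = 4.79e-05) and had rank 21 by p. The difference was 2.83, 1.92 and 2.41 in the 3 runs of array numbers that held both sorts.

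Cd28 went the other way. It read 7.36, 6.80 and 7.30 on the IgG Treg arrays, against 8.51, 8.27, 8.77, 8.28 and 8.85 on the IgG Teff arrays. The groups did not overlap, and the receptor that gives the costimulatory signal was 2.6-fold lower in Treg cells (log2 difference -1.38, SE 0.18, limma adjusted p = 0.00147). Within the runs of array numbers the difference was -1.03, -1.97 and -1.26.

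Pdcd1 was 5.72, 5.80 and 5.88 on the IgG Treg arrays, against 5.45, 5.28, 4.88, 5.40 and 5.07 on the IgG Teff arrays. All Treg arrays stood above all Teff arrays, by a small margin: 1.5-fold (log2 difference 0.58, SE 0.13, limma adjusted p = 0.0287). This call did not survive leaving out Treg replicate 2 (adjusted p = 0.0928) or 3 (0.0682), or Teff replicate 2 (0.0551) or 5 (0.0797).

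Icos read 5.31, 4.51 and 4.53 on the IgG Treg arrays, against 4.15, 4.41, 4.11, 4.16 and 4.06 on the IgG Teff arrays. Again no Teff array reached the lowest Treg array, but Treg replicate 1 stood well above the other Treg arrays. The log2 difference was 0.61 (SE 0.18, limma adjusted p = 0.0705, 95% interval 0.22 to 1.00), and 0.35 without that array. The gene was called with limma's trend and robust options (adjusted p = 0.0419), with the run of array numbers as a block (0.0322) and without Treg replicate 3 (0.0489).

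RNA quality and other cells moved with the sort. The log2 actin 3'/5' ratio, which is high where RNA is degraded or short after amplification, was 3.02 to 4.53 on the Treg arrays and 2.38 to 3.11 on the Teff arrays. With it as a covariate Ctla4 was still called, but Cd28 (-1.17, adjusted p = 0.133) and Pdcd1 (0.70, adjusted p = 0.273) were not, while 86 probe sets in all were called in place of 831. T cell markers other than Cd28 also summed higher in Treg cells (4190.1 to 4631.1 against 2458.0 to 3507.1, 7 of 7 measured), but not gene by gene. Cd2 had a median of 10.42 log2 units in Treg and 9.12 in Teff cells, Cd3d of 8.65 in both, and Cd4 of 6.88 in Treg and 7.28 in Teff cells. Red cell markers were higher in the Treg arrays too (2311.7 to 2885.6 against 470.6 to 2232.4, 2 of 5 measured). So was the sum of B cell markers (688.5 to 870.2 against 478.7 to 545.5, 7 of 8 measured). Single B cell genes went both ways: medians in Treg and Teff cells were 8.81 and 8.19 for Ighm, but 5.28 and 5.36 for Ms4a1. The part of all these markers in the results was not tested.

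In mice given anti-ICOS, where the labels give the gates as CD25+ and CD25-, no member passed. Over all probe sets 0% were called (limma, 209 at an unadjusted p under 0.05). Ctla4 was 7.49, 8.96 and 6.02 on the anti-ICOS Treg arrays, against 5.81, 6.0 and 6.26 on the anti-ICOS Teff arrays. Replicate 3, the array with a Teff-like marker sum, lay within the Teff range, and the other Treg arrays lay well above it. The log2 difference was 1.47 (SE 0.61, limma adjusted p = 1), and 2.21 without replicate 3 (adjusted p = 0.164).

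Cd28 was 7.26, 8.04 and 8.49 on the anti-ICOS Treg arrays, against 8.23, 8.35 and 8.69 on the anti-ICOS Teff arrays. The same Treg replicate 3 was again the array inside the Teff range. The log2 difference was -0.50 (SE 0.31, 95% interval -1.22 to 0.22), and -0.78 without replicate 3 (limma adjusted p = 0.766). Icos read 4.50, 5.25 and 3.93 on the Treg arrays, against 4.03, 3.86 and 3.94 on the Teff arrays, a log2 difference of 0.61 (SE 0.29), and 0.93 without replicate 3 (limma adjusted p = 0.344). Pdcd1 read 5.98, 5.52 and 4.95 on the Treg arrays, against 5.79, 5.10 and 4.99 on the Teff arrays, and these groups overlapped (log2 difference 0.19, SE 0.29). Without replicate 3 the Pdcd1 difference was 0.46. Replicate 3 thus gave the lowest Ctla4, Icos and Pdcd1 and the highest Cd28 of the anti-ICOS Treg arrays.

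The effect of anti-ICOS itself was read within Treg cells of set 2, where 0% of probe sets were called (limma, 425 at an unadjusted p under 0.05). Against the anti-ICOS Treg values above, the IgG Treg arrays read 7.90 and 8.19 for Ctla4, 6.67 and 7.26 for Cd28, 4.15 and 4.11 for Icos and 5.62 and 5.69 for Pdcd1. The anti-ICOS arrays spanned the IgG arrays for Ctla4, Icos and Pdcd1. For Cd28, the lowest of them read like the higher IgG array, at 7.26, and the other two stood above it. The log2 differences, anti-ICOS minus IgG, were 0.96 for Cd28 (SE 0.35, 95% interval 0.16 to 1.77, limma adjusted p = 0.893), -0.55 for Ctla4 (SE 0.69), 0.43 for Icos (SE 0.32) and -0.17 for Pdcd1 (SE 0.33). Without replicate 3 they were 0.68, 0.19, 0.74 and 0.09, so those of Ctla4 and Pdcd1 changed sign. The single run of array numbers with both treatments held replicate 3 and the doubly deposited IgG array, and gave 1.23 for Cd28 and -2.17 for Ctla4. The IgG replicate 1 array came from a run of its own within the set and had the highest sums of myeloid and red cell markers. It was sorted as CD69-, and the other IgG array is labelled CD69- in its set 1 record. The anti-ICOS Treg labels give CD25+ alone, so treatment and labelled gate cannot be told apart here. The part of the run and of these markers in the differences was not tested.

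Teff cells under the treatments could be set side by side only by joining both pancreas sets. Treatment, set and labelled gate thus cannot be told apart there. Here too 0% of probe sets were called (limma, 512 at an unadjusted p under 0.05). After joint quantile normalization Cd28 averaged 8.42 ± 0.15 in anti-ICOS Teff cells (SD, n = 3) and 8.52 ± 0.24 in IgG Teff cells (SD, n = 5), and Ctla4 averaged 6.07 ± 0.21 and 5.85 ± 0.15 in the same groups. The joint fit shares its spread with the Treg groups, and Ctla4 had an SD of 1.37 in anti-ICOS Treg cells, replicate 3 included. The log2 differences, whose intervals use that shared spread, were -0.09 for Cd28 (95% interval -0.54 to 0.35), 0.22 for Ctla4 (-0.65 to 1.09), 0.13 for Icos (-0.40 to 0.65) and 0.29 for Pdcd1 (-0.15 to 0.73). Shifts between the sets bear on these values: between its 2 records, the doubly deposited array moved by -0.42 for Icos and -0.19 for Pdcd1 (set 2 minus set 1), against -0.02 for Ctla4 and -0.04 for Cd28.

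Whether the Treg minus Teff difference itself changed with treatment was tested in the joint fit, with 0% of probe sets called (limma, 327 at an unadjusted p under 0.05). Cd28 had the smallest p of the members. Its Treg minus Teff difference was less negative under anti-ICOS than under IgG by 0.94 (SE 0.30, unadjusted p = 0.00779, limma adjusted p = 1), or by 0.65 without replicate 3. For Ctla4 the change was -1.03 (SE 0.59), and -0.31 without replicate 3. The values for Icos (0.03) and Pdcd1 (-0.42, SE 0.30) had intervals across 0.

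**Figure D2:**
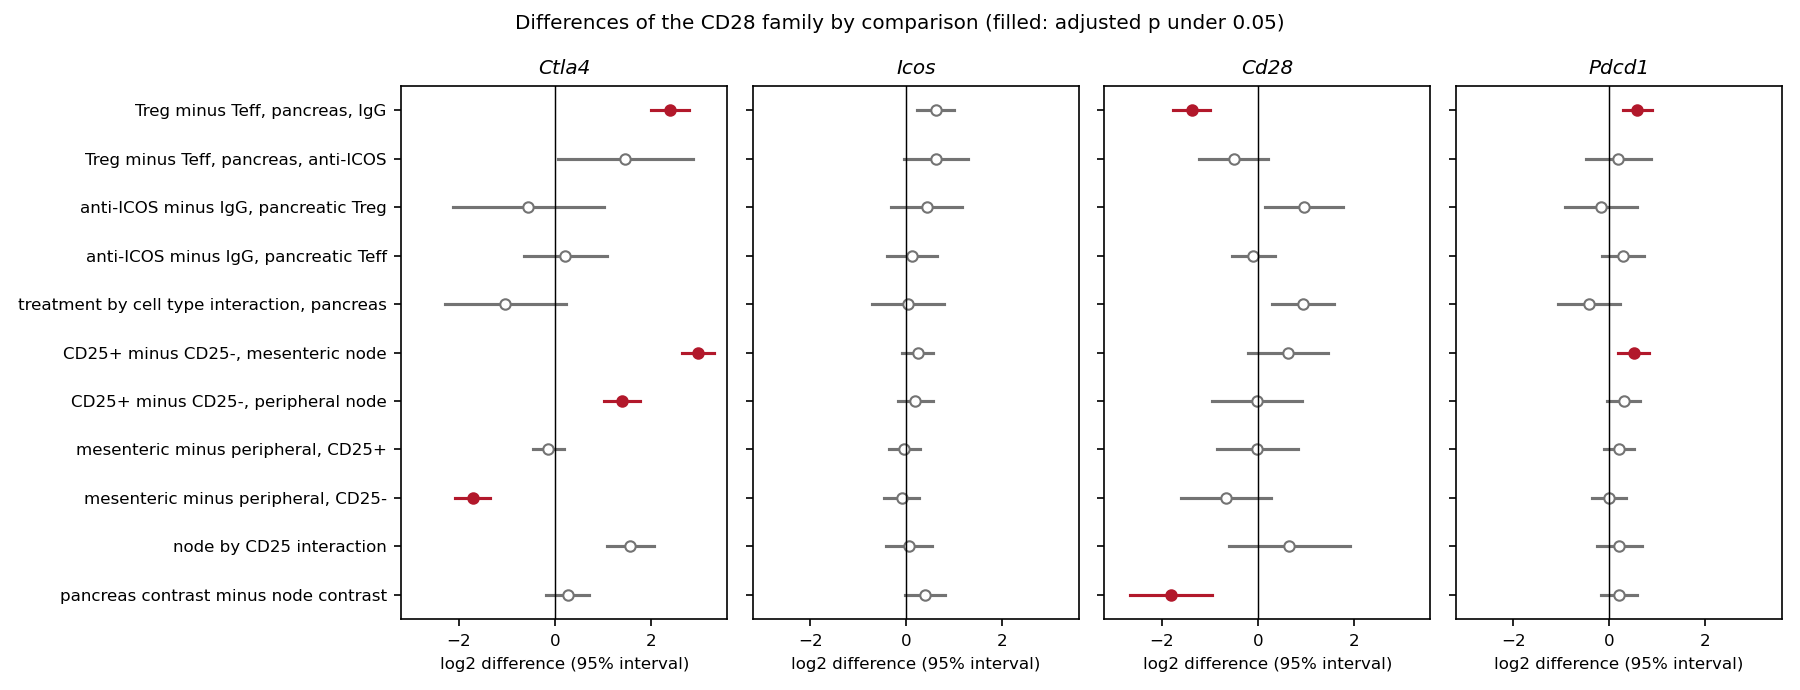
Log2 difference (horizontal axes) of each member in the 11 comparisons (rows), with its 95% interval; filled red points have a limma adjusted p under 0.05. Ctla4 is called in the 3 comparisons of Treg or CD25+ with Teff or CD25- cells outside anti-ICOS treatment, and between the CD25- cells of the node sites; Cd28 is called in the pancreas under IgG and in the test of pancreas against node.

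In lymph nodes Ctla4 was the member called at both sites. In mesenteric nodes Ctla4 and Pdcd1 were called higher in CD25+ cells, where 12.2% of all probe sets were called, 4.66% higher and 7.53% lower. In peripheral nodes Ctla4 was called higher, against 7.69% of all probe sets, 1.8% higher and 5.89% lower. The log2 actin ratio was 2.61 to 3.05 in mesenteric CD25+ cells and 2.57 to 2.67 in mesenteric CD25- cells, and 2.76 to 3.30 in peripheral CD25+ cells and 2.32 to 2.70 in peripheral CD25- cells. With it as a covariate the Ctla4 calls of both sites held and the mesenteric Pdcd1 call was lost (0.51, adjusted p = 0.0965). T cell, B cell, and CD8 and NK cell marker lists moved with the gate in mesenteric nodes, without overlap. Summed intensities in CD25+ and CD25- cells were 1995.0 to 3332.0 and 1628.5 to 1953.4 for T cell markers other than Cd28 (7 of 7 measured), and 572.3 to 712.5 and 489.8 to 554.5 for B cell markers (7 of 8). CD8 and NK cell markers (4 of 6) were lower in CD25+ cells, at 58.4 to 67.5 against 78.6 to 81.4 in mesenteric and 57.1 to 68.8 against 70.7 to 92.7 in peripheral nodes. Genes within these lists did not all move together in mesenteric nodes. Medians in CD25+ and CD25- cells were 5.78 and 4.87 for Cd79b, but 6.2 and 6.71 for Ms4a1. They were 3.53 and 4.63 for Klrd1, but 3.69 and 3.61 for Cd8b1. The part of these marker lists in the results was not tested.

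Ctla4 read 7.06, 6.68, 7.24, 6.69 and 7.02 in mesenteric CD25+ cells, against 4.12, 3.77 and 3.99 in mesenteric CD25- cells. Every CD25+ array stood more than 2 log2 units above every CD25- array. The gene was 7.87-fold higher in CD25+ cells (log2 difference 2.98, SE 0.15, limma adjusted p = 9.64e-08) and had rank 3 by p among all probe sets. The CD25- intensities behind this fold were only 13.7 to 17.3, at the 30.8 to 38.1 percentile of their arrays and within the range of Icos, and the size of the fold moved with an added offset: with 16 added to each intensity the log2 difference was 2.13 (adjusted p = 3.66e-06). In peripheral nodes it read 7.17, 7.02 and 7.02 in CD25+ cells, against 5.38, 5.61 and 6.01 in CD25- cells. These groups were apart as well, by less: 2.64-fold (log2 difference 1.40, SE 0.17, limma adjusted p = 0.000333). Within the runs of array numbers the difference was 2.92 and 2.99 in mesenteric and 1.40 and 1.40 in peripheral nodes.

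The gap between the sites lay in the CD25- cells. Mesenteric minus peripheral, Ctla4 differed by -1.71 among CD25- cells (SE 0.17, limma adjusted p = 0.000249), 3.27-fold lower in mesenteric cells and rank 6 by p, where 0.451% of probe sets were called. It rests on the same low mesenteric CD25- intensities, and with 16 added it was -1.08 (adjusted p = 0.00476). The difference was -1.75 and -1.62 within the runs of array numbers. Among CD25+ cells it was -0.13 (95% interval -0.46 to 0.20, limma adjusted p = 0.972), where 0.0725% were called. The test of the difference between sites in the CD25 contrast gave 1.57 for Ctla4 (SE 0.23, rank 2 by p), just outside the threshold (limma adjusted p = 0.0564), where 0.00805% of probe sets, 1 in all, were called. It passed with limma's trend and robust options (adjusted p = 0.0433) and without mesenteric CD25+ replicate 2 (0.0487) or 4 (0.0472) or peripheral CD25- replicate 1 (0.0312). In the other 18 of 22 alternatives it did not pass, and it was smallest with 16 added to each intensity (0.97, adjusted p = 0.429). The summed intensity of 7 measured CD25+ Treg markers was 306.7 to 360.6 in mesenteric CD25- cells and 346.3 to 480.8 in peripheral CD25- cells; its part in the Ctla4 difference was not tested.

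Cd28 read 7.21, 6.83, 7.37, 7.21 and 7.11 in mesenteric CD25+ cells, against 6.27, 5.73 and 7.55 in mesenteric CD25- cells. In peripheral nodes it read 7.15, 6.95 and 7.37 in CD25+ cells, against 6.29, 7.04 and 8.21 in CD25- cells. The CD25+ arrays of both sites lay close together, between 6.83 and 7.37, and the CD25- arrays scattered from 5.73 to 8.21 and overlapped them. The log2 differences were 0.63 (SE 0.39, limma adjusted p = 0.369) in mesenteric and -0.02 (SE 0.44, 95% interval -0.96 to 0.92) in peripheral nodes. Leaving out single arrays moved both: the mesenteric difference was 0.24 without CD25- replicate 2 and 1.14 without CD25- replicate 3 (adjusted p = 0.0654), and the peripheral one was -0.47 without CD25- replicate 1 and 0.49 without CD25- replicate 3. Within the runs of array numbers they were 1.02 and -0.31 in mesenteric and -0.20 and 0.34 in peripheral nodes, so the sign was not kept.

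Pdcd1 read 4.88, 5.11, 5.18, 5.53 and 5.17 in mesenteric CD25+ cells, against 4.74, 4.55 and 4.70 in mesenteric CD25- cells. The groups did not overlap, and the log2 difference was 0.51 (SE 0.15, limma adjusted p = 0.037). The call was lost without any 1 of the 3 CD25- arrays (adjusted p = 0.0866, 0.162 and 0.0777) and without CD25+ replicate 2, 3, 4 or 5 (0.0515, 0.0555, 0.0751 and 0.0698). It was also lost without peripheral CD25- replicate 2 (0.0503), which enters the shared estimate of spread, and under several alternatives of processing. In peripheral nodes it read 4.59, 5.06 and 5.25 in CD25+ cells, against 4.68, 4.69 and 4.63 in CD25- cells, with a log2 difference of 0.30 (SE 0.16, limma adjusted p = 0.334), or 0.49 without CD25+ replicate 1 (0.0484).

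Icos stayed between 3.21 and 3.90 on all 14 lymph node arrays. It read 3.64, 3.80, 3.88, 3.23 and 3.78 in mesenteric CD25+ cells, against 3.39, 3.35 and 3.53 in mesenteric CD25- cells, and 3.90, 3.54 and 3.66 in peripheral CD25+ cells, against 3.71, 3.21 and 3.64 in peripheral CD25- cells. The groups overlapped at both sites, with log2 differences of 0.24 (95% interval -0.09 to 0.56) and 0.18 (-0.18 to 0.55).

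Cd28 was the member called in the test of the pancreas contrast against the node contrast. Treg minus Teff in the pancreas under IgG, less the mean CD25+ minus CD25- difference of both node sites, was -1.81 for Cd28 (SE 0.41, limma adjusted p = 0.0228), where 2.08% of probe sets were called. Tissue, sort gate, treatment and array set differ between these contrasts and cannot be told apart. For Ctla4 the same difference was 0.27 (SE 0.22, 95% interval -0.18 to 0.72), for Icos 0.39 (-0.03 to 0.81) and for Pdcd1 0.20 (-0.18 to 0.57). The node mean for Ctla4 joins unlike sites. Within the sets its contrast was 2.98 in mesenteric and 1.40 in peripheral nodes, on either side of the 2.40 in the pancreas. The Cd28 call was lost without IgG Treg replicate 2 (-1.65, adjusted p = 0.0695), with the actin ratio as covariate (-1.64, adjusted p = 0.156) and with array medians centred in place of quantile normalization (-1.67, adjusted p = 0.0562).

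When all arrays were quantile-normalized together, with the doubly deposited array counted once, the order of the groups could be read on 1 scale. The deposited sets differed in scale before, and how the values of set 1 were made is not stated. Cd28 averaged 8.43 ± 0.25 in IgG Teff cells of the pancreas (SD, n = 5) and 8.33 ± 0.15 in anti-ICOS Teff cells (n = 3), the highest of the 8 groups, and 6.67 ± 0.87 in mesenteric CD25- cells (n = 3), the lowest. In that order each group overlapped the next. Ctla4 was highest in IgG Treg cells of the pancreas (8.19 ± 0.36, n = 4), then anti-ICOS Treg (7.37 ± 1.40, n = 3), peripheral CD25+ (7.28 ± 0.15, n = 3) and mesenteric CD25+ cells (7.09 ± 0.25, n = 5), with overlap at each step. A step without overlap, of 1.16, followed down to anti-ICOS Teff (5.93 ± 0.20, n = 3), peripheral CD25- (5.82 ± 0.31, n = 3) and IgG Teff cells (5.72 ± 0.15, n = 5). Another step of 1.65 led down to mesenteric CD25- cells (4.07 ± 0.19, n = 3). The anti-ICOS Treg means in these orders include replicate 3, the array with a Teff-like marker sum, and no order was made without it. For Ctla4 that group ran from 5.91 to 8.70 on this scale, with replicate 3 the lowest. Icos and Pdcd1 both averaged highest in the pancreatic Treg groups (4.59 and 4.43 for Icos, 5.45 and 5.58 for Pdcd1, under anti-ICOS and IgG), and in their order the 1 step without overlap was between IgG Treg and anti-ICOS Teff cells for Icos.

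Because Ctla4 and Cd28 compete for the same ligands, their log2 ratio within an array was also taken. Probe sets differ in response, so only its change between groups can be read. The ratio of Ctla4 to Cd28 was 1.17 ± 0.28 in IgG Treg cells (SD, n = 3) and -2.61 ± 0.36 in IgG Teff cells of set 1 (n = 5). Under anti-ICOS it ran from -2.47 to 0.93 over the 3 Treg arrays, against -2.44 to -2.36 in Teff cells. It was -0.21 ± 0.18 in mesenteric CD25+ cells (n = 5) and -2.56 ± 0.87 in mesenteric CD25- cells (n = 3), and -0.09 ± 0.23 in peripheral CD25+ cells and -1.51 ± 0.65 in peripheral CD25- cells (n = 3 each). Pancreatic Treg arrays under IgG thus had the highest ratios of set 1, through both more Ctla4 and less Cd28, whereas the node CD25+ arrays differed from CD25- arrays mainly in Ctla4.

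**Figure D3:**
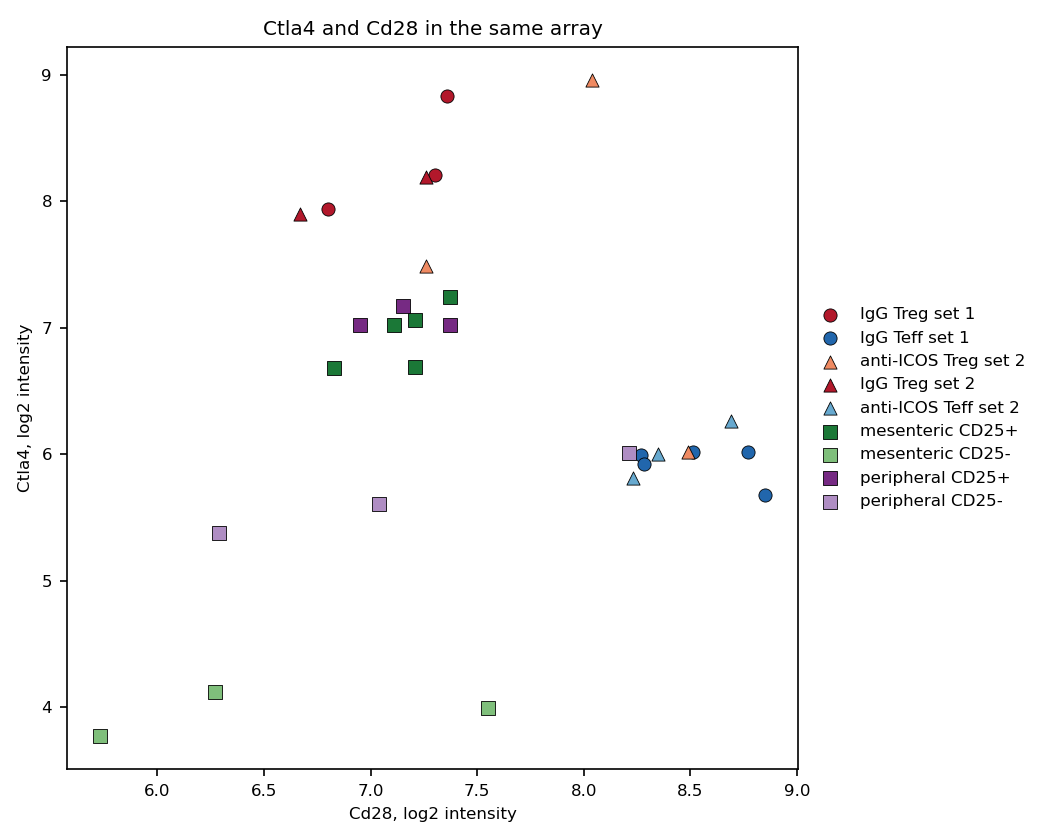
Ctla4 (vertical axis) against Cd28 (horizontal axis), both in log2 intensity, with 1 point per record; circles are pancreas set 1, triangles pancreas set 2 and squares the lymph node set. Values are as deposited, so levels are to be read within a set. In both pancreas sets the IgG Treg arrays lie high and to the left of the Teff arrays. The anti-ICOS Treg array with Ctla4 at 6.02 and Cd28 at 8.49 lies among the Teff arrays.

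Other genes of the pathway were read from 5 lists, the B7 ligands, proximal signalling enzymes, regulators of the 4 genes, genes that costimulation is known to induce and other immunoglobulin superfamily receptors. Of all probe sets, 3.93% were called higher and 2.76% lower in pancreatic Treg cells, 4.66% and 7.53% in mesenteric CD25+ cells and 1.8% and 5.89% in peripheral CD25+ cells. Of 7 B7 ligands 3 were measured (Cd80, Cd86 and Cd276), and 0 passed in either direction in the pancreas under IgG or in either node. Their median log2 difference was 0.06, 0.07 and 0.02 in these comparisons, against 0.03, 0.04 and 0.05 over all probe sets.

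Of 31 proximal signalling genes 22 were measured. In pancreatic Treg cells, against 3.93% higher and 2.76% lower over all probe sets, 0 rose and 1 fell: Bcl10, an adaptor that carries the signal to NF-kB, by 0.58 on the log2 scale (SE 0.13, limma adjusted p = 0.0276). In mesenteric CD25+ cells 0 rose and 4 fell: the adaptor Lcp2 (SLP-76, -0.94), Ppp2ca (-0.92), a subunit of the phosphatase PP2A, the PI3 kinase subunit Pik3ca (-0.83) and the Tec kinase (-0.38). The other probe set of Pik3ca differed by -0.21 and was not called. In peripheral CD25+ cells 0 rose and 1 fell, the kinase Akt2 (-0.36). List medians were -0.08, 0.01 and -0.08.

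Of 20 regulators 14 were measured, with 2 higher and 1 lower in pancreatic Treg cells (3.93% and 2.76% over all probe sets). Prdm1, which encodes the repressor Blimp-1, rose by 1.85 (SE 0.12, limma adjusted p = 2.15e-05) and Batf, an AP-1 family factor, by 0.66, while Nfatc1 fell by 0.40. In mesenteric CD25+ cells 0 rose and 1 fell (Rbpj, the Notch pathway factor, -0.68), and in peripheral CD25+ cells 0 rose and 1 fell (Irf4, a factor induced by receptor signals, -1.46). The list medians of -0.05, -0.05 and -0.07 lay near those of all probe sets.

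Of 19 costimulation-induced genes 18 were measured, with 3, 4 and 2 higher and 0 lower in pancreatic Treg, mesenteric CD25+ and peripheral CD25+ cells. Over all probe sets 3.93%, 4.66% and 1.8% were higher. Tnfrsf4 (OX40), itself a costimulatory receptor, rose in all 3, by 3.06, 2.53 and 2.29, and Il10, a suppressive cytokine, rose by 2.30 in the pancreas. Il2ra also passed in each (2.00, 1.57 and 1.35), but the cells were sorted on its product, so it is no finding. In mesenteric nodes Tnfrsf9 (4-1BB, 0.62) and the survival gene Bcl2l1 (0.39) passed as well, while their other probe sets differed by 0.05 and 0.00. List medians were 0.11, 0.25 and 0.19.

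Of 19 other immunoglobulin superfamily receptors 11 were measured, with 3, 3 and 1 higher (3.93%, 4.66% and 1.8% over all probe sets) and 0, 0 and 1 lower (2.76%, 7.53% and 5.89%). Cd48, a ligand of CD2 family receptors, rose by 1.18, 1.08 and 1.20. Cd2, an adhesion receptor, rose by 1.36 in the pancreas and 1.66 in mesenteric nodes, and Cd5, an inhibitory receptor, by 0.76 and 1.41. Cd200, which encodes an inhibitory ligand, fell by 0.84 in peripheral nodes. List medians were 0.00, 0.30 and 0.18. Without mesenteric CD25+ replicate 2, a check added after the data were seen, the counts in mesenteric nodes were 0 higher and 3 lower for signalling genes, 0 and 1 for regulators, 3 and 0 for induced genes and 4 and 0 for these receptors.

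**Figure D4:**
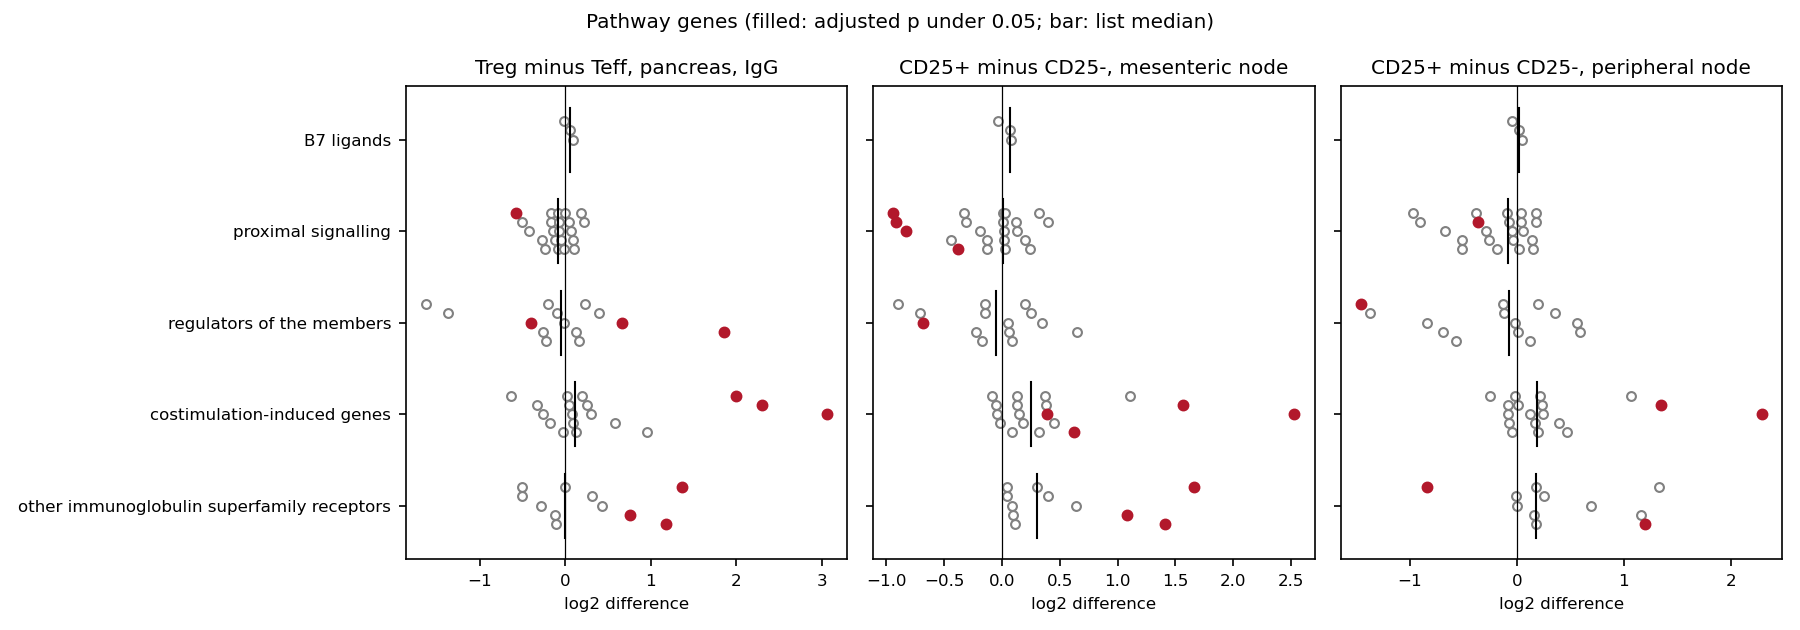
Log2 difference (horizontal axes) of each measured gene of the 5 lists (rows) in 3 comparisons (panels), with filled red points at a limma adjusted p under 0.05 and a bar at the list median. Most genes lie near 0; the points farthest to the right are costimulation-induced genes.

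The genes most like each member were ranked by the lower of 2 Pearson correlations over arrays, 1 over the 8 arrays of pancreas set 1 and 1 over the 14 lymph node arrays, among 2746 probe sets with a mean of at least 6 log2 units in both. These arrays share the sorts, so the values describe a common pattern over groups. Nearest to Ctla4 were Tnfrsf1b (TNF receptor 2, 0.90), Nrp1 (neuropilin-1, 0.88), the histone gene H2az1 (0.86), the calcium-binding protein gene S100a6 (0.86) and Tnfrsf18 (GITR, 0.86). Nearest to Cd28 were Baz2a (0.79), the splicing factor gene Sf3b1 (0.78), the histone demethylase gene Kdm6a (0.76), Srrm1 (0.75) and Phxr4 (0.75). Pdcd1 was nearest to Etfb (0.95), a mitochondrial electron carrier gene, Lsp1 (0.94), Naxe (0.93) and the proteasome genes Psmb10 (0.92) and Psmd8 (0.92). For Icos the values were lower, from 0.74 for the pancreatic elastase gene Cela1 to 0.71 for the prostaglandin receptor gene Ptger1, with Psmg3 (0.73), Flt1 (0.72) and Ttc39b (0.71) between. The probe sets of Lsp1, Naxe and Ttc39b have suffixes by which Affymetrix marks probes that can match other transcripts. That of Psmg3 bears a different suffix, _r_at. The summed intensity of 6 measured exocrine markers, Cela1 among them, was 480.8 to 908.8 in IgG Treg cells and 463.5 to 649.4 in IgG Teff cells of set 1, and its part in the Icos values was not tested.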

How the data were processed

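The deposited table gives linear intensities of 12488 probe sets in 30 array records, as seen from the values. The submitters' processing notes name RMA, with no version, for pancreas set 2 and the lymph node set, and no label or header says how the authors made the deposited intensity values of set 1. Log2 was taken, the 66 control probe sets were left out, and 12422 were fitted with limma 3.58.1 (lmFit and eBayes, two-sided, R 4.3.3) with Benjamini-Hochberg adjustment over all of them. Comparisons lay within a set, used as deposited, except those that join sets, which were quantile-normalized together with the doubly deposited array averaged. The limma code was tested on simulated data. The number of arrays limits the precision.

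Array numbers in the labels fall into 5 runs. The main fits hold no term for the run, which served for the differences within runs and as a block among the alternatives. In the lymph node arrays control probe sets appear in another order than in the rest, and were put back (r with the pancreatic arrays 0.254 before and 0.952 after) for the actin ratio alone. Anti-ICOS Treg and Teff arrays share replicate numbers, and the deviations of same-numbered arrays correlated at 0.59, 0.28 and 0.24. For number 3 the best match was not the array of the same number. Only the arrays numbered 1 also share a run of array numbers, so pairing by replicate number is uncertain. The fit blocked by replicate number changed no call there.

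The members, lists and tests were chosen with earlier results of these data known. A gene is represented by its brightest probe set, and of each list up to 4 called genes with the largest differences were named in each of 3 comparisons. Alternatives were quantile normalization, median centring, limma's trend and robust options, a filter at an intensity of 50, an offset of 16, the actin ratio, array-number run, replicate or set in the model, and leaving out each array. With the set in the model, both records of the doubly deposited array entered as if they were separate arrays.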

Additional observations from a re-analysis of the deposited data

Results flagged for a closer look

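Icos in IgG Teff replicate 2 of set 1, at 4.41, stood apart as the highest of 5 arrays: its distance to the next one was 0.724 of the group's range. With 8 combinations of member and group tested, and about 1 in 20 flagged by chance, this is a single value.

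The Cd28 contrast differed between pancreas and lymph nodes by -1.81 (SE 0.41, limma adjusted p = 0.0228 for the difference itself), with the exceptions and the confounding given above.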

How the results depend on the processing

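Each of the 44 values (the 4 members in 11 comparisons) was recomputed under every alternative that could be fitted, 907 values in all: 842 kept direction and side of the threshold, 22 lost the call, 8 gained it and 35 changed sign. No member has a further probe set, so averaging probe sets gave no separate value, and the intensity filter left out Icos, and Pdcd1 wherever lymph node arrays entered. Ctla4 kept its calls under all alternatives in the pancreas under IgG (2.14 to 2.60), in mesenteric (2.13 to 3.06) and peripheral nodes (1.17 to 1.57) and between the CD25- cells of the sites (-1.85 to -1.08). The causes of the changes below were not tested.

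With the actin ratio as covariate, the pancreas under IgG gave Cd28 -1.17 (adjusted p = 0.133) and Pdcd1 0.70 (0.273), and Cd28 between pancreas and node gave -1.64 (0.156). Mesenteric Pdcd1 was 0.51 (0.0965), peripheral Cd28 0.22, Pdcd1 under anti-ICOS -0.05 and the Icos treatment interaction -0.03. The calls over all probe sets were then 86 in the pancreas under IgG, 267 in peripheral nodes, 56 between pancreas and node and 5 between the CD25+ cells of the sites.

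With the array-number run as a block, Icos in the pancreas under IgG was called (0.64, adjusted p = 0.0322). Between treatments Icos was -0.18 in Treg and -0.03 in Teff cells, Cd28 0.02 and Ctla4 -0.07 in Teff cells, and 15 probe sets were called between Treg and Teff cells under anti-ICOS and 3 between treatments in Treg cells. With trend and robust options Icos was called in the pancreas under IgG (0.61, 0.0419), as was the Ctla4 interaction in the nodes (1.57, 0.0433), with 2 calls in that comparison and 1 between Teff treatments.

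Normalization moved other values. Median centring gave Cd28 -1.67 (adjusted p = 0.0562) between pancreas and node, 0.13 between Teff treatments, mesenteric Pdcd1 0.46 (0.07) and Pdcd1 0.02 between CD25- sites. Quantile normalization gave mesenteric Pdcd1 0.46 (0.0644), peripheral Cd28 0.07 and Pdcd1 0.02 between CD25- sites. An offset of 16 gave the lowest Ctla4 values in mesenteric nodes (2.13), between CD25- sites (-1.08) and in the node interaction (0.97, adjusted p = 0.429), mesenteric Pdcd1 0.34 (0.0517) and 3 calls between CD25+ sites, and the filter left 0 calls for the node interaction. Between Teff treatments, where treatment and set coincide, 1870 probe sets were called after median centring and 4390 as deposited, with Icos at -0.23, against 0 after joint normalization. With the set as covariate, a fit that kept both records of the doubly deposited array, the Icos treatment interaction was -0.09.

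With the replicate block, mesenteric Pdcd1 was 0.39 (adjusted p = 0.139) with 832 calls in place of 1514, Icos between CD25+ sites 0.07, and the node interaction had 2 calls. It changed no other call of a member. The node numbers share only a number: deviations of same-numbered arrays correlated from -0.14 to 0.59 over 21 pairs that include those of set 2, with 11 over 0.1 and 8 in which an array correlated best with its own number. Under anti-ICOS the blocked fit gave 1.47 for Ctla4 (adjusted p = 0.704) and 0 calls.

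Leaving out 1 array at a time gave these ranges. In the pancreas under IgG, Icos ran from 0.35 to 0.75 and Pdcd1 from 0.50 to 0.64, and under anti-ICOS Pdcd1 ran from -0.06 to 0.46. Between Treg treatments Ctla4 ran from -1.29 to 0.19 and Pdcd1 from -0.42 to 0.09, and the Icos treatment interaction from -0.30 to 0.32. Pdcd1 ran from 0.42 to 0.58 in mesenteric and from 0.16 to 0.49 in peripheral nodes, and Cd28 from 0.24 to 1.14 in mesenteric and from -0.47 to 0.49 in peripheral nodes. Between CD25+ sites Cd28 and Icos each ran from -0.12, to 0.10 and 0.07. Between CD25- sites Icos ran from -0.25 to 0.0031 and Pdcd1 from -0.04 to 0.06. The node interaction ran from -0.04 to 0.21 for Icos and from 1.40 to 1.72 for Ctla4, and Cd28 between pancreas and node from -2.06 to -1.61.

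The calls over all probe sets ran from 450 (without IgG Teff replicate 5, and 471 without Treg replicate 2) to 1000 in the pancreas under IgG, from 0 to 12 (without Treg replicate 3) under anti-ICOS, from 0 to 35 (without IgG replicate 2) between Treg treatments and from 0 to 1 (without IgG Treg replicate 1 of set 1) between Teff treatments. They ran from 743 (without CD25- replicate 2, and 798 without CD25- replicate 1) to 1878 in mesenteric nodes. In peripheral nodes they ran from 531 (without CD25+ replicate 2, with 546 and 597 without CD25- replicates 2 and 3) to 1462 (without CD25+ replicate 1). Between CD25+ sites they were 5, 2 and 21 without peripheral CD25+ replicates 1, 2 and 3, and between CD25- sites from 36 (without peripheral CD25- replicate 2) to 68. The node interaction had 1 call, and 2 without mesenteric CD25+ replicate 2 or 4 or peripheral CD25- replicate 1 or 3. Between pancreas and node they ran from 160 (without IgG Teff replicate 5) to 449 (without peripheral CD25+ replicate 1). Where a group is left with 1 array, it is assumed to vary like the others. Without detection calls, signal over background could not be judged for Icos or for Ctla4 in mesenteric CD25- cells.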
